A study of Mus musculus with 14 samples.

Results

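The genes described here encode the catalytic subunits of the SET1 and MLL complexes and 4 of their accessory subunits, 10 genes in all, of 38926 gene symbols in the LSK and MyePro count files and 39179 gene IDs in the LT-HSC files. They were chosen by name: Kmt2a, Kmt2b, Kmt2c, Kmt2d, Setd1a and Setd1b encode the enzymes, and Men1, Cxxc1, Hcfc1 and Ncoa6 encode subunits that occur in only some of the complexes. All 10 were found by symbol or by Ensembl gene ID in all 8 RNA libraries, and all 10 passed the low-count filter in every comparison. RNA was sequenced from sorted mouse bone marrow cells of mixed chimeras, in which donor marrow shared the irradiated host with C57Bl/6J competitor cells. Control donors were Mx1-Cre; Dpy30F/+ and knockout (KO) donors Mx1-Cre; Dpy30F/-, so that the controls also carried Cre and 1 floxed allele. Mx1-Cre is switched on by interferon, and both genotypes received 4 injections of pIpC, an inducer of interferon, at 7.5 µg/g from 7 weeks after transplantation. Sorting followed 2 weeks after the final dose. Long-term hematopoietic stem cells (LT-HSC) gave 2 control and 2 KO libraries, with transplant 1 and transplant 2 supplying 1 of each genotype. Each was a pool of 7 to 9 mice, and the RNA was amplified. LSK cells, which include stem cells and early progenitors, and MyePro cells, a name that the labels do not spell out, gave a single unamplified library for each genotype, from pools of 2 to 3 mice. The MyePro gate and the ages of donors are not stated in the labels.

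SET1 and MLL complexes add methyl groups to lysine 4 of histone H3 (H3K4), a mark of active promoters and enhancers. Each complex is built from 1 enzyme and a core that all of them share, to which DPY30 belongs. SETD1A and SETD1B, with CXXC1, place most trimethylation at active CpG-rich promoters. KMT2A and KMT2B (MLL1 and MLL2) bind menin, the product of Men1, and KMT2A maintains Hox gene expression and is needed by blood stem cells. KMT2C and KMT2D (MLL3 and MLL4) work with NCOA6 mainly at enhancers, where they place monomethylation. HCFC1 is a scaffold of the SET1 and the menin-containing complexes and of several other chromatin complexes.

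Start sites of these genes are shown first because the SET1 complexes act at CpG-rich promoters. RefSeq tables of build GRCm38.p6 held a window of 300 bases, from 250 before to 50 after a transcript start, for 7 of the 10 genes, and no entry was matched for Kmt2b, Setd1b and Cxxc1. Windows of 4 genes that carry the results below are given from 5′ to 3′ with each CG dinucleotide in capitals. Kmt2a and Hcfc1 had ratios of opposite sign in MyePro cells, Kmt2c was among the lowest in LSK, and Men1 was the lowest in LT-HSC.
Kmt2a (chr9:44881240-44881539, minus strand): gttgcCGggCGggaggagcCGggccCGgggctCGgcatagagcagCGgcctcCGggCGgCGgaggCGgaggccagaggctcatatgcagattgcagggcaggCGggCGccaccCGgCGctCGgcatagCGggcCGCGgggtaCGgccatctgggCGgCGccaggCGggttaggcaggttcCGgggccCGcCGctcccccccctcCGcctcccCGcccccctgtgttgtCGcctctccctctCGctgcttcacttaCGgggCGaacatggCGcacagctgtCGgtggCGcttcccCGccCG
Kmt2c (chr5:25498734-25499033, minus strand): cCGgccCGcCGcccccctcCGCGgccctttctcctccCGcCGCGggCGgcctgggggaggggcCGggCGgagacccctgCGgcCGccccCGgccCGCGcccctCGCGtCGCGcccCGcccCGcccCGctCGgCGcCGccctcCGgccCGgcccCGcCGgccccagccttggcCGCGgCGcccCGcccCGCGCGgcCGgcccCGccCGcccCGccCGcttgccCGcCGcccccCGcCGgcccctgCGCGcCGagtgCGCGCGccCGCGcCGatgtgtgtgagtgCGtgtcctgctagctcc
Hcfc1 (chrX:73966308-73966607, minus strand): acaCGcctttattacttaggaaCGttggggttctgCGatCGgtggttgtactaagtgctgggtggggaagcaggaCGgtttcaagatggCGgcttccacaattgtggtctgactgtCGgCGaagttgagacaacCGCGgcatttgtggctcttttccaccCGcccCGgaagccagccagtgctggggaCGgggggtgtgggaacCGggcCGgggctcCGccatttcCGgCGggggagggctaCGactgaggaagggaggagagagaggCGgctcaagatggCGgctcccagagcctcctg
Men1 (chr19:6334729-6335028, plus strand, 1 of 3 overlapping windows): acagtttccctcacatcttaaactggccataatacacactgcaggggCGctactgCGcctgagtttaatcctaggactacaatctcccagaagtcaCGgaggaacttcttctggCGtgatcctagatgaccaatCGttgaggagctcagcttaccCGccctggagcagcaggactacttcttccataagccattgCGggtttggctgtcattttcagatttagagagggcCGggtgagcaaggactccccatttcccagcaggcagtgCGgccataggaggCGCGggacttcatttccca
The Kmt2c window held 56 CG dinucleotides, the Kmt2a window 36, the Hcfc1 window 21 and the Men1 window shown 11, against a median of 7 over 32851 windows of the same length. Of the windows not shown, that of Setd1a held 35, that of Kmt2d 27, the other Men1 windows 16 each and that of Ncoa6 only 1. The GC box GGGCGG, read on both strands, was found in windows of Hcfc1, Kmt2a, Kmt2c, Kmt2d and Men1 and in 35.7% of all windows. The CCAAT box, read likewise, was found in windows of Men1 and Ncoa6 and in 37.4% of all windows. The Hcfc1, Kmt2d and Ncoa6 windows lie wholly inside the annotated gene, whereas those of Kmt2a, Kmt2c, Setd1a and Men1 span its outermost 5′ end. These matches describe letters only, and no chromatin data were analysed here.

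Kmt2a lies on chromosome 9 (44803355 to 44881352, GRCm38.p6), Kmt2b on chromosome 7 (30568855 to 30589056), Kmt2c on chromosome 5 (25271795 to 25498855) and Kmt2d on chromosome 15 (98831669 to 98874077). Setd1a lies on chromosome 7 (127777389 to 127800122), Setd1b on chromosome 5 (123142040 to 123168630), Men1 on chromosome 19 (6334979 to 6340894) and Cxxc1 on chromosome 18 (74216212 to 74221493). Ncoa6 lies on chromosome 2 (155390656 to 155473911). Hcfc1 (chromosome X, 73942792 to 73966995) is the only X-linked member. Counts were taken per whole gene, so no exon, isoform or alternative start of these genes can be told from another.

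Depth ran from 6130320 gene counts in KO LSK to 85499797 in KO LT-HSC 1. Dpy30 was lower in KO in the unamplified libraries, at 54.3% of control in LSK and 45.6% in MyePro. KO donors carried the Dpy30 - allele before any pIpC, and loss of the floxed allele was not tested with these values. In LT-HSC, Dpy30 measured 12.9 and 8.43 CPM in control against 14.1 and 4.67 CPM in KO, where CPM is the count scaled to the library size after TMM normalization (the trimmed mean of M values). The library labelled KO 1 was thus not lower on this scale. Scaled to library totals alone, the values were 15.6 and 9.59 CPM in control and 8.18 and 5.88 CPM in KO, with both KO libraries below both controls, as they also were per 1000 counts of the added ERCC RNA (1.65 and 1.08 against 0.684 and 0.980). With library totals the median log2 fold change of all genes was -0.35. KO LT-HSC 1 had a TMM factor of 0.580, against 1.14 to 1.26 in the other LT-HSC libraries. It also held 1021934 ERCC counts, against 324368 to 362910. Its lower values on these scales are thus not particular to Dpy30. In LT-HSC the 2 genotypes differed in sex-linked transcripts, with Xist at 239 and 150 CPM in control and 2165 and 1504 CPM in KO. Eif2s3y, which is Y-linked, stood at 19.6 and 15.4 CPM in control and 0.101 and 0.0587 CPM in KO LT-HSC. Genotype and sex of the donors thus cannot be told apart for any gene in the LT-HSC comparison. In the LSK and MyePro libraries Xist lay between 0.14 and 0.62 CPM. The Y-linked Eif2s3y stood there at 55.2 and 56.9 CPM in control and KO LSK and at 74.4 and 67.4 CPM in MyePro. The sum of 8 stem and progenitor cell markers was 545 and 335 CPM in control and 419 and 447 CPM in KO LT-HSC. It was 1425 and 1433 CPM in control and KO LSK, and 726 and 776 CPM in MyePro. Of these markers, Kit stood between 109 and 237 CPM in LT-HSC and at 491 and 393 CPM in control and KO LSK. Kit was also found in MyePro, at 395 and 242 CPM. In LSK 4 of the 6 measured were lower in KO, such as Slamf1 (14.3 and 6.05 CPM). Ly6a was higher there (31.5 and 62.1 CPM). Cell identity was not tested with these markers. Summed over 9 erythroid markers, control held 751 CPM and KO 33.9 CPM in LSK, and 3369 and 333 CPM in MyePro. In MyePro the sum of 7 megakaryocyte markers was 152 CPM in control against 1500 CPM in KO, and the sum of 7 neutrophil markers was 23.8 and 615 CPM there, and in LSK it was 10.7 and 171 CPM. Only 3 of the 7 neutrophil markers, S100a8, S100a9 and Lcn2, averaged 5 CPM or more between genotypes in either population. In LSK, Camp (5 and 1 reads) and Ltf (12 and 0 reads) were lower in KO. In the order LSK control, LSK KO, MyePro control and MyePro KO, the sum of 7 macrophage markers was 120, 253, 138 and 430 CPM, that of 7 T and NK cell markers 206, 585, 207 and 645 CPM, and that of 6 B and plasma cell markers 172, 55.0, 126 and 15.6 CPM. Nkg7 alone made most of the T and NK sum, at 197, 451, 197 and 516 CPM in that order. Cd8a went the other way, with 43, 3, 7 and 0 reads, and Cd3e and Cd3g had at most 2 reads in any of these libraries. In LT-HSC the erythroid sum was 129 and 111 CPM in control against 42.3 and 60.3 CPM in KO, and the sums of the 5 other mature lists overlapped between genotypes. In the unamplified libraries 1 B or plasma cell marker was at 0 throughout, and no other marker was at 0 in every library of a set. The part of these cells in the values of the H3K4 enzymes was not tested. In bulk RNA, fewer cells that express a gene and less RNA per cell cannot be told apart.

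In LSK cells all 10 genes had a lower level in KO than in control, with Cxxc1 so near to level that it turned positive with library totals, with RLE size factors (the DESeq2 kind) and with thinned counts. None differed by 2-fold, beside 4.98% of all genes on the higher and 5.39% on the lower side. The median log2 ratio was -0.47, against -0.04 over all 10311 genes measured, 53.6% of which had a negative ratio. By the 1.5-fold mark 3 of the 10 were lower, Kmt2c, Hcfc1 and Ncoa6, against 12.7% of all genes, and 0 were higher, against 11.1%. Each group was a single library, so these ratios have no replicate check, and the 95% intervals given with them cover counting error only. The ratios are of TMM-normalized CPM.

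**Figure D1:**
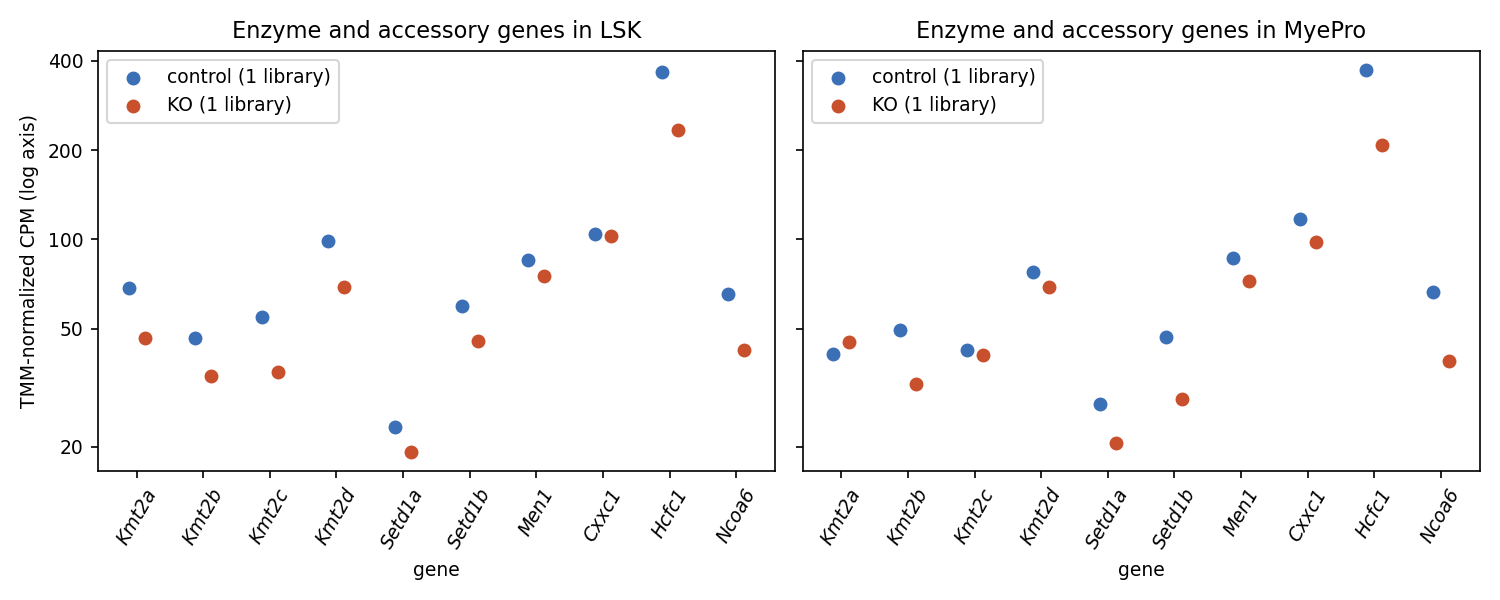
Level of each of the 10 genes in LSK (left) and MyePro (right), in TMM-normalized CPM on a log axis, with 1 point per library (blue, control and orange, KO). In LSK every orange point lies below its blue partner, closest for Cxxc1 (104 and 102 CPM), which turned positive with library totals (log2 ratio 0.11), and in MyePro Kmt2a lies slightly above (41.0 and 44.9 CPM).

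Among the enzymes, the menin-binding pair was lower in KO LSK. Kmt2a measured 68.5 CPM in control against 46.6 CPM in KO, a log2 ratio of -0.56 (interval -0.75 to -0.37). Kmt2b stood at 46.4 and 34.6 CPM, a log2 ratio of -0.42 (interval -0.64 to -0.20). The enhancer-associated pair also lay below control. Kmt2c measured 54.6 CPM in control against 35.7 CPM in KO (log2 ratio -0.61, interval -0.83 to -0.40), and Kmt2d 98.9 against 69.3 CPM (-0.51, interval -0.67 to -0.36). Of the SET1 enzymes, Setd1b stood at 59.8 and 45.5 CPM (-0.39). Setd1a, with only 343 and 127 reads, stood at 23.3 and 19.2 CPM, and its interval of -0.58 to 0.02 spanned 0.

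The accessory subunits were spread more widely in LSK. Hcfc1, the scaffold, was among the lowest of the 10 genes, from 368 CPM in control to 234 CPM in KO, which is 63.6% of control (log2 ratio -0.65, interval -0.74 to -0.57). Ncoa6, a coactivator of the KMT2C and KMT2D complexes, stood at 65.6 and 42.3 CPM (-0.63, interval -0.83 to -0.44). Men1, which encodes the partner of KMT2A and KMT2B, stood at 85.1 and 75.5 CPM, 88.7% of control. Cxxc1, the CpG-binding subunit of the SET1 complexes, was level at 104 and 102 CPM (log2 ratio -0.02, interval -0.16 to 0.11). Men1 and Cxxc1 thus lay closest to control of the 10 genes. With library totals in place of TMM the median of all genes moved from -0.04 to 0.09 and that of the 10 genes from -0.47 to -0.33, Cxxc1 was at 0.11, and 0 of the 10 passed 1.5-fold.

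In MyePro cells 9 of the 10 genes had a lower level in KO, but the enzymes split. None passed 2-fold, beside 7.99% of all genes on the lower and 11.3% on the higher side. The median log2 ratio was -0.35, against -0.08 over all 10244 genes, of which 55.3% were negative. By the 1.5-fold mark 4 were lower, Kmt2b, Setd1b, Hcfc1 and Ncoa6, against 20.7% of all genes, and 0 were higher, against 19.4%. The lower count was 3 with library totals, where Kmt2b was at -0.56. Hcfc1 measured 373 CPM in control against 208 CPM in KO, or 55.7% of control (log2 ratio -0.84, interval -0.91 to -0.78). Ncoa6 stood at 66.2 and 38.9 CPM (-0.77, interval -0.93 to -0.61). Both genes were also low in LSK, although the order among the lowest genes rests on overlapping counting intervals and changed when counts were thinned.

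Within the menin-binding pair the paralogs had ratios of opposite sign in MyePro. Kmt2b measured 49.4 CPM in control against 32.6 CPM in KO (log2 ratio -0.60, interval -0.78 to -0.43), whereas Kmt2a stood at 41.0 and 44.9 CPM (0.13, interval -0.03 to 0.29). With 1 library per genotype, the difference between the paralogs was not tested against the spread between pools. Setd1b stood at 47.0 and 29.0 CPM (-0.69, interval -0.88 to -0.51) and Setd1a at 27.9 and 20.5 CPM (-0.44, interval -0.67 to -0.22). The enhancer-associated pair lay near the control level, Kmt2c at 42.2 and 40.7 CPM (-0.05) and Kmt2d at 77.5 and 68.9 CPM (-0.17). Men1 stood at 86.3 and 72.2 CPM (-0.26) and Cxxc1 at 117 and 98.2 CPM (-0.26).

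Counted over LSK and MyePro together, 9 of the 10 genes had a negative ratio in both, against 43.6% of 9979 genes measured in both, the exception being Kmt2a. Summed over the 6 enzymes, LSK libraries held 352 CPM in control and 251 CPM in KO, and MyePro libraries 285 and 236 CPM. Summed over the 4 accessory genes the values were 623 and 454 CPM in LSK and 643 and 417 CPM in MyePro.

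**Figure D2:**
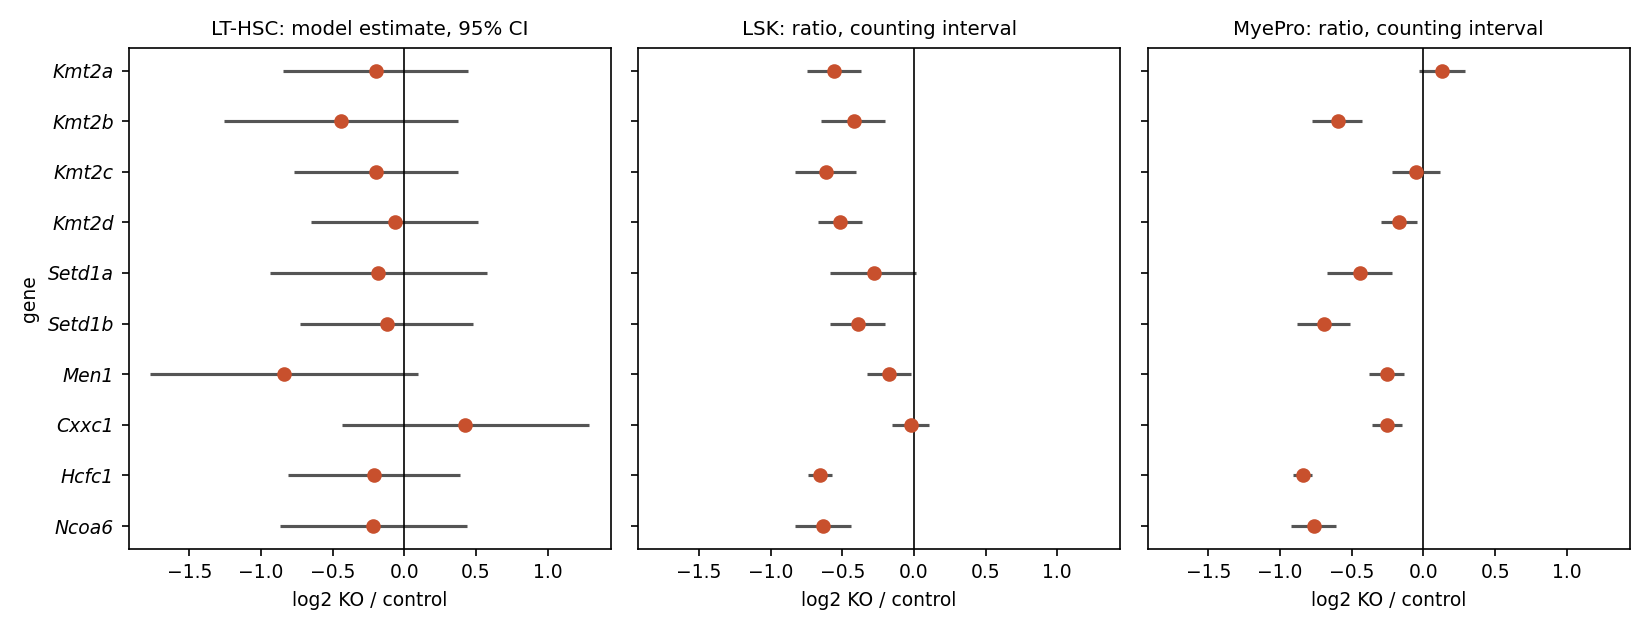
Log2 ratio of KO to control for the 10 genes, with 1 panel per population. In LT-HSC points are edgeR estimates over 2 libraries per group with 95% confidence intervals, every one of which spans 0. In LSK and MyePro points are ratios of 1 library each with counting intervals, with Hcfc1 at -0.65 and -0.84.

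The comparison of MyePro with LSK cells asked how these genes differ between the populations within each genotype. In control cells the median over the 10 genes was 0.02, against 0.05 over 10059 genes, and Kmt2a was the only one past 1.5-fold: it went from 68.5 CPM in LSK to 41.0 CPM in MyePro (log2 ratio -0.74, interval -0.87 to -0.60), beside 13.7% of all genes on that side. No member was 1.5-fold higher (8.92% of all genes) or past 2-fold (3.01% higher and 7.21% lower). Kmt2c (-0.37), Kmt2d (-0.35) and Setd1b (-0.35) were also lower in control MyePro than in control LSK. Setd1a (0.26, interval 0.06 to 0.46) and Cxxc1 (0.17, interval 0.08 to 0.27) were higher. Men1, Hcfc1 and Ncoa6 lay at 0.02, 0.02 and 0.01, and their intervals spanned 0.

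In KO cells the step in Kmt2a was smaller. Kmt2a stood at 46.6 CPM in KO LSK and 44.9 CPM in KO MyePro (log2 ratio -0.05, interval -0.26 to 0.16), against -0.74 in control. With 1 library per group, the difference between these steps was not tested. Setd1b was the only member past 1.5-fold in KO, at 45.5 and 29.0 CPM (-0.65, interval -0.88 to -0.42), beside 5.53% of 10360 genes on the lower side. No member was 1.5-fold higher (8.38% of genes) or past 2-fold (3.15% higher and 1.53% lower). The median over the 10 genes was -0.06. The 4 libraries serve in both the genotype and the population comparisons, so the values for Kmt2a are not separate observations: its level was highest in control LSK, and the 3 others lay between 41.0 and 46.6 CPM.

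The balance between paralogs within a library does not depend on how libraries are scaled. Reads of a pair depend on the lengths of both genes, so a share is compared only between libraries of 1 set, and levels of different genes were not compared because no transcript lengths were used. Kmt2a took 59.6% of the reads of Kmt2a and Kmt2b in control LSK (Wilson interval 57.3 to 61.9%), 57.4% in KO LSK (53.1 to 61.5%), 45.4% in control MyePro (43.1 to 47.7%) and 58.0% in KO MyePro (54.7 to 61.2%). The counting interval of control MyePro did not overlap the 3 others, but each is a single library and the spread between pools was not measured. Kmt2c took 35.5%, 34.0%, 35.2% and 37.1% of the reads of Kmt2c and Kmt2d in the same order, with overlapping intervals throughout. Setd1a took 28.0% and 29.7% of the Setd1a and Setd1b reads in control and KO LSK and 37.3% and 41.5% in control and KO MyePro. Those shares were higher in both MyePro libraries than in both LSK libraries.

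**Figure D3:**
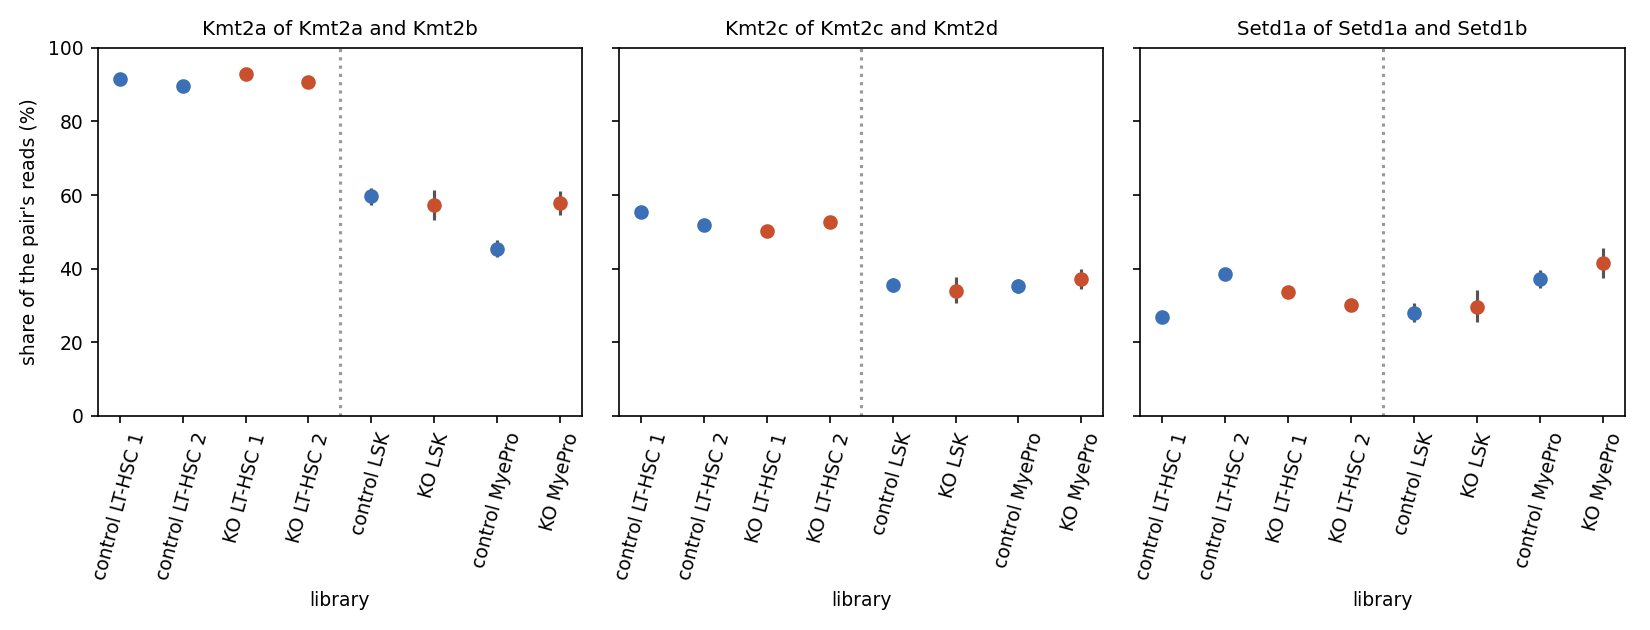
Share of the reads of each enzyme pair that fell on the first gene, in percent, for the 8 libraries (blue, control and orange, KO), with Wilson 95% intervals that cover counting error only. The dotted line separates the amplified LT-HSC libraries from the unamplified ones. For Kmt2a, control MyePro (45.4%) lies below the 3 other unamplified libraries.

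In LT-HSC none of the 10 genes passed the test between genotypes. With edgeR's quasi-likelihood test on 12844 genes and Benjamini-Hochberg adjustment, 0 members passed at an adjusted p under 0.05, against 0% of all genes on the higher side and 0.0156% on the lower side. No member reached an unadjusted p under 0.05 (1.01% of genes did on the higher and 1.28% on the lower side), and with DESeq2 the count of members was also 0. The log2 fold change was negative for 9 of the 10, against 49.7% of all genes, with a median of -0.20. Without control LT-HSC 2, in which the sums of 6 B cell and plasma cell markers (370 CPM) and 7 neutrophil markers (325 CPM) were the highest of the 4 libraries, 5 of 10 were negative and the median was -0.0018. Without control 1, KO 1 or KO 2, 9, 9 and 8 of 10 were negative, with medians of -0.27, -0.19 and -0.20. A link between the marker sums and these values was not tested.

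Men1 had the lowest value. It measured 19.2 and 19.3 CPM in control libraries against 8.10 and 13.4 CPM in the libraries labelled KO, both below both controls. Its log2 fold change of KO over control was -0.84 ± 0.395 (SE, 2 libraries in each group, n = 2; 95% interval -1.77 to 0.09, adjusted p = 0.999, edgeR quasi-likelihood test). Its unadjusted p from the same edgeR test was 0.0711, and 0.0446 with transplant as a block, where the adjusted p stayed at 0.9998. By transplant the log2 ratio was -1.24 and -0.52. Without KO LT-HSC 1 the value was -0.52, and without KO LT-HSC 2 it was -1.25.

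None of the 6 enzymes passed the test between LT-HSC genotypes. Kmt2a stood at 364 and 484 CPM in control and 362 and 377 CPM in KO, a log2 fold change of -0.20 (95% interval -0.84 to 0.45). Kmt2c stood at 247 and 237 CPM in control and 213 and 209 CPM in KO, and was the only other member with both KO libraries below both controls, a pattern found for 13.9% of all genes, while no member had both KO libraries above both controls (13.8% of genes). Its log2 fold change was -0.20 ± 0.242 (SE; 95% interval -0.77 to 0.37). Kmt2d stood at 200 and 220 CPM against 212 and 188 CPM, with overlap. Kmt2b stood at 33.6 and 56.0 CPM in control and 27.8 and 38.1 CPM in KO (-0.44, 95% interval -1.26 to 0.37), and was the higher in transplant 2 in both genotypes. Setd1a (21.6 and 31.8 against 24.2 and 22.9 CPM) and Setd1b (58.8 and 50.8 against 47.6 and 53.1 CPM) overlapped between groups. The intervals of these enzymes include a lowering of the size seen in LSK as well as no difference.

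Of the other accessory genes in LT-HSC, Hcfc1 stood at 169 and 144 CPM in control and 124 and 146 CPM in KO (log2 fold change -0.21, 95% interval -0.81 to 0.39). This gene is X-linked, and the groups differed in Xist as given above. Genotype and sex of the donors cannot be told apart for Hcfc1, nor for the autosomal members in LT-HSC. Ncoa6 stood at 84.7 and 120 CPM against 92.6 and 83.2 CPM (-0.22). Cxxc1 was the only member with a positive value, at 28.4 and 17.2 CPM in control and 25.5 and 35.9 CPM in KO (0.43, 95% interval -0.43 to 1.29), and its 2 transplants went in opposite directions (-0.16 and 1.06). Kmt2a took between 89.6% and 92.9% of the Kmt2a and Kmt2b reads in the 4 LT-HSC libraries, and Kmt2c between 50.1% and 55.3% of its pair, with overlap between the genotypes in both. The share of Setd1a ran from 26.9% to 38.5%, both ends being control libraries.

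**Figure D4:**
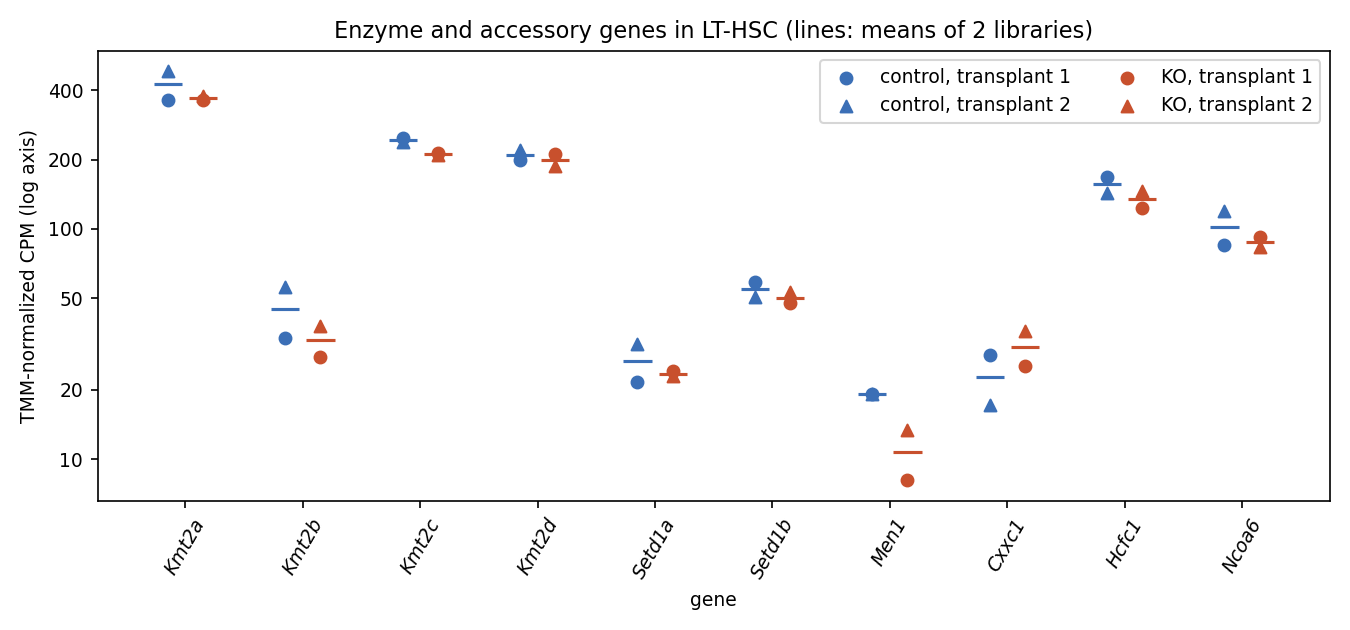
Level of each of the 10 genes in the 4 LT-HSC libraries, in TMM-normalized CPM on a log axis (blue, control and orange, KO; circles, transplant 1 and triangles, transplant 2; lines, means of 2 libraries). The groups overlap for all genes except Men1 and Kmt2c, and Cxxc1 has the higher mean in KO (22.8 and 30.7 CPM).

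The rest of the H3K4 machinery and other histone methyltransferases were read beside the 10 genes. Of the 4 core subunits, Ash2l and Rbbp5 stood near control in LSK (log2 ratios 0.00 and 0.02) and Wdr5 at -0.18, so that apart from Dpy30 (-0.88) the core lay closer to control than the enzymes did. That order was not found in MyePro, where the same 3 genes stood at -0.30, -0.39 and -0.42. There Kmt2a, Kmt2c and Kmt2d lay closer to control (0.13, -0.05 and -0.17), and Kmt2b, Setd1a and Setd1b lay further from it (-0.60, -0.44 and -0.69). Of 10 other complex factors, 6 were negative in LSK, beside 53.6% of all genes, and 8 in MyePro, beside 55.3%, with medians of -0.06 and -0.30, and 0 passed 1.5-fold in either. Psip1, which tethers the menin complex to chromatin, stood at 162 and 137 CPM in control and KO LSK and at 162 and 109 CPM in MyePro. The demethylases that remove H3K4 methylation, 5 genes, had medians of -0.13 and -0.36, and 0 passed 1.5-fold. In LT-HSC the 4 core subunits (median -0.20), 8 of 10 other factors and 0 of the 5 demethylases had negative values, and none passed the adjusted threshold. Kdm6a, an X-linked H3K27 demethylase of the KMT2C and KMT2D complexes, stood at 56.4 and 49.2 CPM in control and 80.3 and 79.8 CPM in KO LT-HSC (edgeR unadjusted p = 0.0459, adjusted p = 0.999), in libraries that also differ in Xist.

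A further list held 20 lysine methyltransferases outside the SET1 and MLL families, most of which act on other sites, although Setd7 is known for H3K4 monomethylation. In LSK 18 of 20 were negative, beside 53.6% of all genes, the median was -0.35, and 5 passed 1.5-fold on the lower side, beside 12.7%. In MyePro 19 of 20 were negative, beside 55.3% of all genes, the median was -0.64, and 11 passed 1.5-fold on the lower side, beside 20.7%. Kmt5a, the H4K20 monomethyltransferase, stood at 167 and 87.2 CPM in control and KO LSK and at 256 and 101 CPM in MyePro (log2 ratio -1.35). Nsd1, an H3K36 methyltransferase, stood at 179 and 90.9 CPM in LSK (-0.98), and Smyd2 at 92.4 and 55.8 CPM (-0.73). Dot1l, the H3K79 methyltransferase, stood at 79.4 and 41.1 CPM in MyePro (-0.95). In LT-HSC 13 of 20 were negative, beside 49.7% of all genes, with a median of -0.06, and 0 passed the adjusted threshold. The values there ran in both directions, with Suv39h2 at 0.67 and Setdb2 at 0.45. Dot1l measured 42.3 and 37.5 CPM in control and 23.5 and 16.0 CPM in KO (log2 fold change -1.02, edgeR unadjusted p = 0.0147, adjusted p = 0.999).

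**Figure D5:**
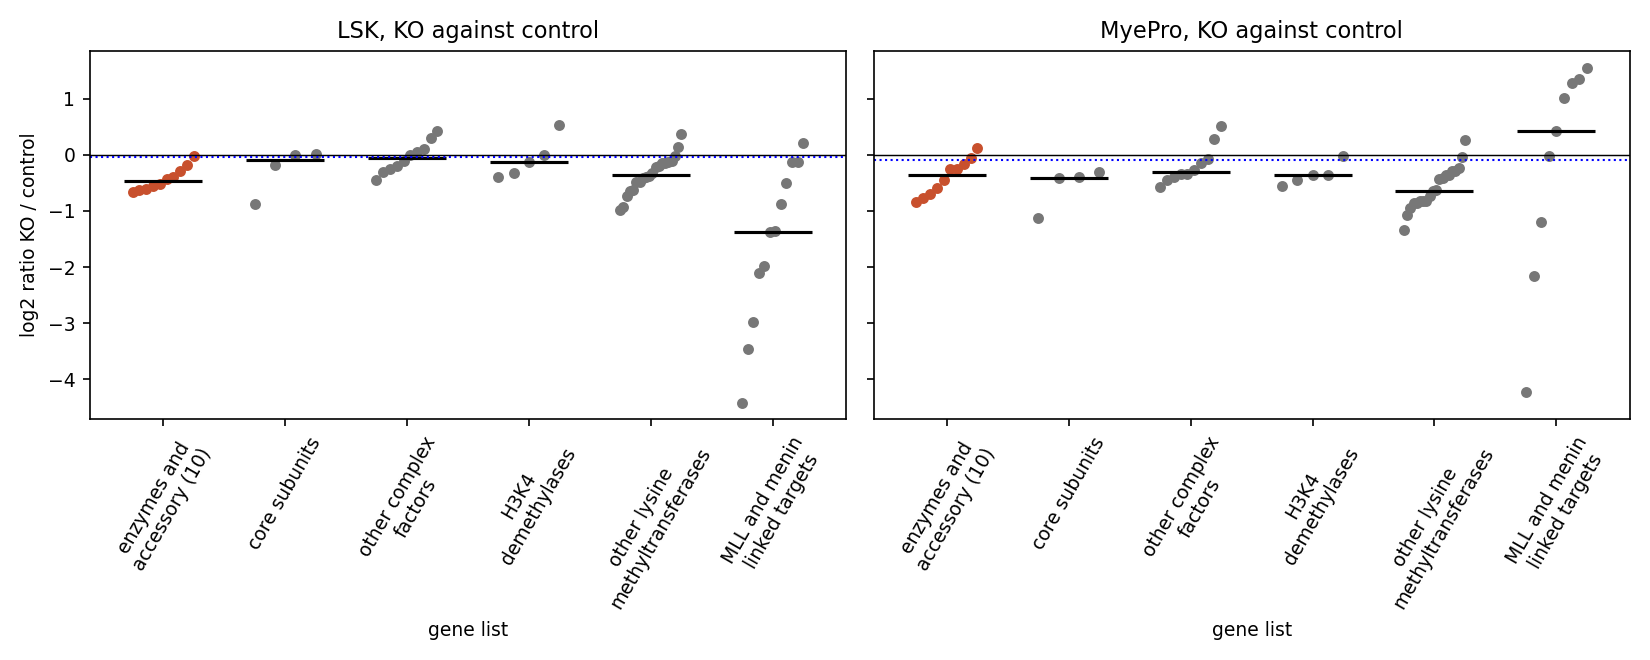
Log2 ratio of KO to control in LSK (left) and MyePro (right) for each measured gene of 6 lists (points, in ascending order within a list), with the list median (black line) and the median of all genes (dotted line). The 10 enzyme and accessory genes (red-orange, medians -0.47 and -0.35) lie in the range of the other lysine methyltransferases (medians -0.35 and -0.64), and the linked targets spread much further.

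Genes known to depend on KMT2A and menin, among them Hox genes and their cofactors, spanned a far wider range than the enzymes. Of 12 measured in LSK, 11 were negative and 7 passed 2-fold on the lower side, beside 5.39% of all genes. In MyePro 3 of 9 passed 2-fold downward and 4 upward, beside 7.99% and 11.3% of all genes. Hoxa9 stood at 41.5 and 3.63 CPM in control and KO LSK and at 24.3 and 1.14 CPM in MyePro. Hoxa10 had 236 and 4 reads in LSK. Hoxa7 had a log2 ratio of -2.16 in MyePro, whereas the cofactor gene Meis1 stood at 159 and 86.6 CPM in LSK and at 25.8 and 76.4 CPM in MyePro. Eya1 also stood higher in KO MyePro (1.35). Kmt2a itself differed by less than 1.5-fold between genotypes in both populations, though narrowly in LSK. Its log2 ratio there was -0.56 (counting interval -0.75 to -0.37), and with thinned counts it was -0.62, past 1.5-fold. In LT-HSC 0 of the 13 target genes passed the edgeR threshold, with a median of 0.11.

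Over the 8 libraries, the gene whose pattern of log2 CPM around the mean of its own set was nearest to that of Kmt2a was Zbtb38, at a Euclidean distance of 0.196. Itpripl2 (0.257) and Atxn7l1 (0.268) followed, against a median distance of 0.957 over 3443 genes that averaged 20 CPM or more in both sets. Men1 lay under that minimum in LT-HSC and was not compared. Among the members, the nearest patterns were those of Kmt2c and Kmt2d (0.255). All points share the same 8 libraries, and the distances describe them only.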

How the data were processed

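RNA counts of 8 libraries were used. The 6 ChIP-seq samples were not analysed here. The authors deposited unnormalized counts for each gene. Groups were taken from the titles. Per the submitters' processing notes, tools used for the series included TopHat2, Picard 1.126 and HTSeq 0.6.0 with build mm10, without role or order. The annotation and the strand setting were not stated there, so reads of overlapping and antisense genes could be shared. LT-HSC IDs were matched to symbols for 37607 of 39179. ERCC entries, summary entries and an entry named DPY30-SPKIG were left out of library sizes. Multiply aligned reads were 23.9% to 37.9% of file totals, and mitochondrial ribosomal RNA took 45.1% to 62.4% of LT-HSC gene counts.

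For LT-HSC the genotype test was run in edgeR 4.0.16 under R 4.3.3 (TMM, at least 1 CPM in at least 2 libraries, quasi-likelihood test, two-sided, Benjamini-Hochberg). DESeq2 1.42.0 was an alternative. Same-numbered libraries share a transplant per the labels. Their deviations from group means correlated at 0.292 across genes. The replicates are pools of mice, and p-values measure the spread between 2 such pools per group. LSK and MyePro ratios used TMM-normalized CPM, a prior count of 2 and a mean of at least 5 CPM, and counting intervals were exact binomial. No outcome of a test of the fit on simulated data is given here. Comparisons of levels per length and by transcript length were not made, since no transcript lengths were used. The paralog shares use reads instead. All members were named, with every gene of the core, other-factor and demethylase lists eligible and up to 4 of the largest values from the other lists. The members and lists were chosen with earlier results of these data known.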

Additional observations from a re-analysis of the deposited data

Results flagged for a closer look

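Ratios of opposite sign in the 2 unamplified populations were flagged for Kmt2a, whose log2 ratio of KO to control was -0.56 in LSK and 0.13 in MyePro. The counting interval in MyePro, -0.03 to 0.29, spanned 0, so the sign there is not settled. Members were flagged at any size of ratio, and listed genes only past 1.5-fold in both populations. Among the linked target genes, Meis1 had log2 ratios of -0.87 in LSK and 1.56 in MyePro. Each population had 1 library per genotype, so these differences were not tested.

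The entry named DPY30-SPKIG, which the labels do not explain and which entered no comparison, had 11657 counts in KO MyePro and 1470 in control MyePro. Scaled to library size this was 1011 and 70.6 CPM, and in LSK 396 CPM in KO and 331 CPM in control.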

How the results depend on the processing

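In LT-HSC 2 genes of all those tested passed the threshold, the Y-linked Kdm5d and Eif2s3y. The count was 4 with the replicate block (transplant), 14 with DESeq2, 4 with library totals, 1 with ERCC size factors, 0 with mitochondrial ribosomal RNA left out and 4 without the low-count filter, and 0 to 5 when single libraries were left out. The count of members past the threshold stayed at 0 under all 11 alternatives, the block included. With the block, the added calls were the sex-linked Xist and Ddx3y. The cause of these moves was not tested. When single LT-HSC libraries were left out, the log2 fold change ran from -0.38 to 0.031 for Kmt2a, from -0.15 to 0.013 for Kmt2d, from -0.42 to 0.14 for Setd1a, from -0.44 to 0.063 for Ncoa6 and from -1.19 to 0.40 for Dpy30. It ran from -0.76 to -0.017 for Kmt2b, from 0.12 to 0.84 for Cxxc1, from -0.33 to -0.083 for Hcfc1 and from -1.25 to -0.52 for Men1, without a change of direction.

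With a minimum mean of 1 CPM in place of 5, more genes were measured, and genes past 2-fold numbered 1130 higher and 946 lower in LSK KO against control (513 and 556 before), 2222 higher in MyePro KO against control (1160), 1371 lower from LSK to MyePro in control (725), and 855 higher and 472 lower in KO (326 and 159). No member passed 2-fold under the 6 alternatives. The number of members 1.5-fold lower in LSK was 3, and it was 0 with library totals, 2 with RLE size factors and 5 with thinned counts. In MyePro the number was 4, and it was 3 with library totals, with ribosomal RNA entries left out and with thinned counts. With library totals the median of all genes moved to -0.35 in LT-HSC, where that of the members was -0.53, and the genes past 2-fold in LSK were 648 higher and 457 lower, and in KO from LSK to MyePro 246 higher and 234 lower. In LT-HSC, 2 libraries per group limit what can be detected. Setd1a in KO LSK rests on 127 reads. Alternative lengths for the enzyme shares were not run.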
